A study of Mus musculus with 12 samples.

Results

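Immediate early and Kruppel-like factor genes were read on 12 arrays by 12 probe sets for 10 genes. The members are the AP-1 genes Fos, Fosb, Jun, Junb and Atf3, the early genes Egr1 and Ier2, the phosphatase gene Dusp1, and the Kruppel-like factor genes Klf2 and Klf4. They were chosen by gene and not by signal, from 45037 array rows other than controls, with earlier results of these data known. Jun and Klf4 had 2 probe sets each. Members are counted below as probe sets, so Jun and Klf4 can each count 2 times. A probe set is a group of short probes for a transcript, and its identifier names the gene here through a list given for these members only.

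The samples were 4 lungs of nontransgenic FVB mice, 4 histologically normal lungs of transgenic mice, taken adjacent to a tumor, and 4 lung adenocarcinomas of transgenic mice. All mice were males of the inbred FVB strain by the labels and were 7 to 11 months old. The transgene was wild-type human cyclin E under the human surfactant protein C promoter, which is active in alveolar type II cells, so that adjacent lungs and tumors carried the same transgene and the nontransgenic lungs did not. The description of the series gives 4 transgenic mice for both tissues, whereas the paper describes independent samples, and the tissues were separated by gross pathology and kept in RNAlater before extraction. Each value is the log2 signal of 1 array, as the authors normalized it, so a difference of 1 is a 2-fold change. Levels can be compared between arrays for a probe set, but not between probe sets.

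Immediate early genes are transcribed within minutes of a growth factor, stress or injury signal, without new protein synthesis, and their mRNAs are short-lived. FOS and JUN family proteins pair to form the AP-1 transcription factor, while DUSP1 removes phosphate from the MAP kinases that switch these genes on. KLF2 and KLF4 are zinc finger transcription factors, known in the lung for keeping endothelial cells quiescent, and both are also induced quickly by signals such as blood flow.

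In tumors, Klf2, Jun, Dusp1 and, by 1 of its 2 probe sets, Klf4 were lower than in adjacent normal lung. Junb was higher than in nontransgenic lung, and no difference passed for Fos, Egr1, Atf3 or Ier2. In limma, 23538 probe sets were tested, with Benjamini-Hochberg adjustment and a threshold of 0.05. Of the 11 member probe sets tested, 5 were lower in tumors than in adjacent normal lung, where 15.6% of all probe sets were. These 5 were both Jun probe sets, Klf4 1417395_AT, Dusp1 and Klf2. In the same comparison 0 were higher, where 13.2% of all were. Over all probe sets that was 3663 lower and 3102 higher, and 3080 lower and 4834 higher after median centring of each array. Against nontransgenic lung, 6 were lower, where 16.9% of all probe sets were, and 1 was higher, where 15.6% of all were. The 6 were both probe sets of Jun and of Klf4, with Dusp1 and Klf2. The median log2 fold change of the 11 probe sets was -0.88 against adjacent normal lung and -0.85 against nontransgenic lung. Over all probe sets tested it was 0.07 in both comparisons. The 2 member medians are the values of Jun 1448694_AT and Jun 1417409_AT. Jun and Klf4, both lower, enter them with 2 probe sets each, so they do not stand for the genes as a set. Both comparisons share the 4 tumors. Across the 3 groups, limma's moderated F-test passed for 6 of the 11 members, where it passed for 28.6% of all probe sets. The twelfth member, Fosb, did not reach the level for testing, which was a signal above the median of the table, 4.18, on at least 4 arrays, while the other 11 lay above that level on every array.

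2 arrays stood apart from their groups, and results that rest on them are given with and without them. Tumor 2 was at a mean distance of 153.9 from the other tumors over all probe sets tested, against 96.7 to 102.9 for those, and 453 of the 45037 probe sets lay more than 1 above every other array there. Adjacent normal lung 3 was at 104.7 from its group, against 66.2 to 69.8, and 834 probe sets lay more than 1 below every other array, against 0 to 52 on the other arrays. The excess of the 3′ over the 5′ end of control transcripts (Gapdh and beta-actin, averaged), a measure of RNA integrity, was 0.61 on tumor 2 and 0.30 to 0.57 on the other arrays. The part of RNA quality in the results was not tested. In whole tissue, fewer cells of a type and less RNA per cell cannot be told apart, and cell type markers were not analysed here.

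**Figure D1:**
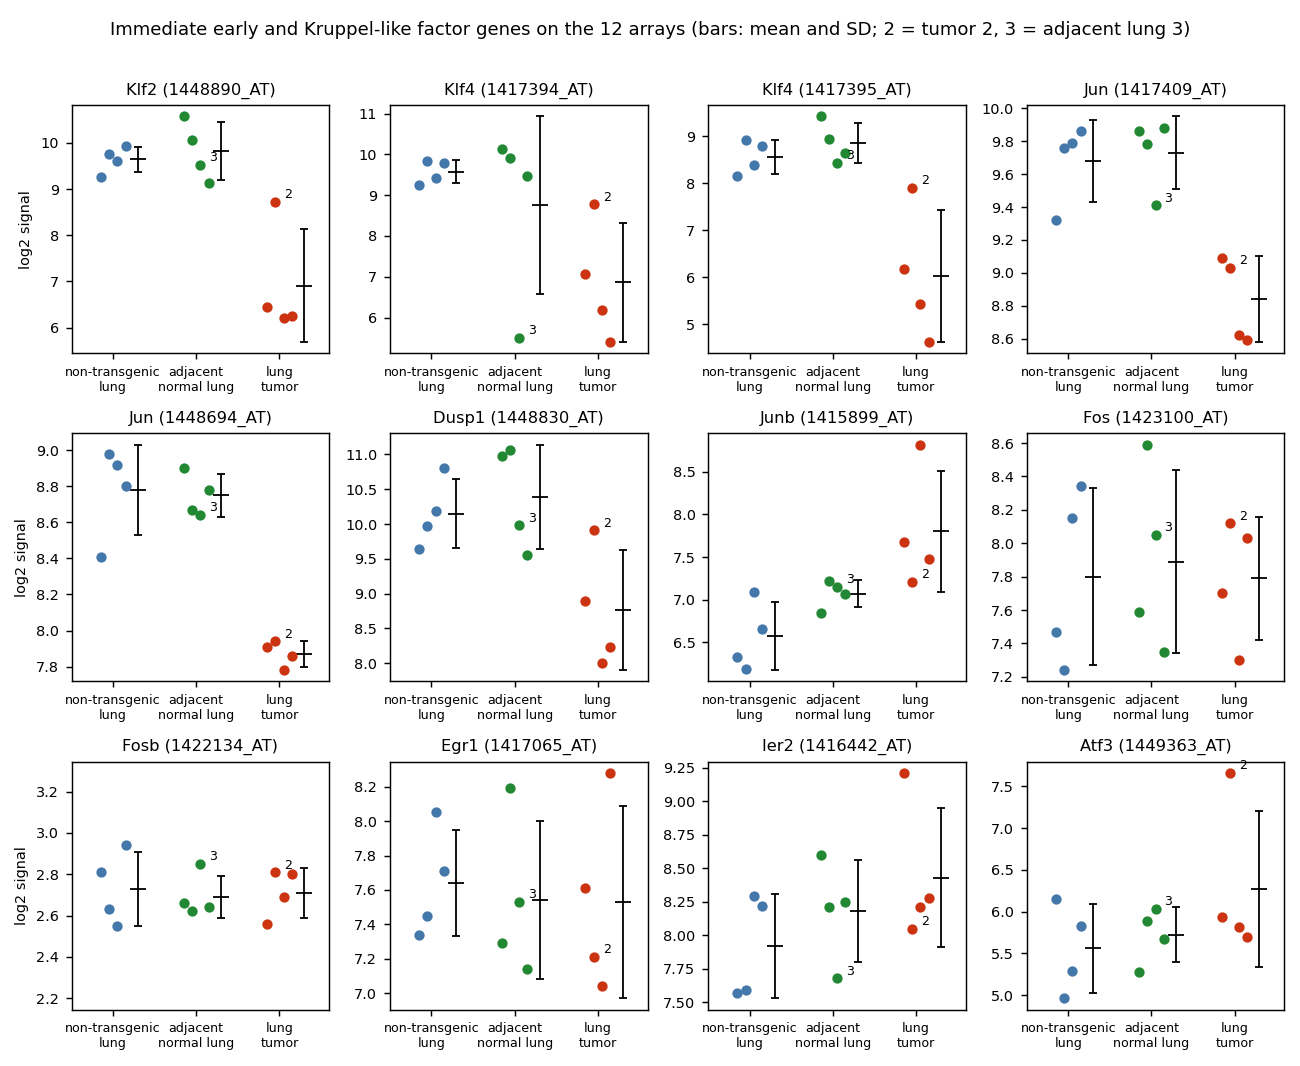
Log2 signal (vertical axes) of the 12 probe sets in nontransgenic lung (blue), adjacent normal lung (green) and lung tumor (red). Each point is 1 of 4 arrays per group, the bars are the mean and SD, and the digits 2 and 3 mark tumor 2 and adjacent normal lung 3. For Klf2, both Jun probe sets and Klf4 1417395_AT, all 4 tumors lie below all 8 normal lungs.

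Klf2, known in vascular endothelium as a flow-induced gene and in lymphocytes for their trafficking, fell in tumors by about as much as Klf4, and these 2 genes had the largest log2 fold changes of the members. Its log2 signal was 9.27, 9.75, 9.61 and 9.93 in nontransgenic lungs 1 to 4, and 10.57, 10.06, 9.52 and 9.13 in adjacent normal lungs 1 to 4. In tumors 1 to 4 it was 6.45, 8.73, 6.21 and 6.26. All 4 tumors lay below all 8 normal lungs, with tumors 1, 3 and 4 close together and tumor 2 between them and the normal lungs. The means were 9.64 ± 0.28 (SD, n = 4), 9.82 ± 0.63 and 6.91 ± 1.22 in the 3 groups. Klf2 was 7.51-fold lower in tumor than in adjacent normal lung, with a log2 fold change of -2.91 (SE 0.50, 95% interval -4.00 to -1.81, limma adjusted p = 0.0017), and 6.62-fold lower than in nontransgenic lung (log2 fold change -2.73, limma adjusted p = 0.0021). Without tumor 2, the log2 fold changes were -3.51 and -3.33 (limma adjusted p = 1.8e-06 and 2.5e-06). By replicate number, the tumor minus adjacent lung difference was -4.12, -1.33, -3.31 and -2.87, so each tumor was lower than the lung of its own number.

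Klf4, a factor of epithelial differentiation and of endothelium and one of the reprogramming factors, fell with Klf2, and its 2 probe sets parted on a single array. Probe set 1417395_AT was at 8.15, 8.92, 8.39 and 8.79 in nontransgenic lungs 1 to 4, at 9.42, 8.95, 8.44 and 8.64 in adjacent normal lungs 1 to 4, and at 6.17, 7.90, 5.42 and 4.62 in tumors 1 to 4. Tumor 2 was again the highest tumor, but all 4 tumors lay below all 8 normal lungs. By this probe set Klf4 was 7.14-fold lower in tumor than in adjacent normal lung (log2 fold change -2.84, SE 0.54, 95% interval -4.01 to -1.66, limma adjusted p = 0.0029) and 5.81-fold lower than in nontransgenic lung (-2.54, limma adjusted p = 0.0046). Without tumor 2 the log2 fold changes were -3.46 and -3.16 (limma adjusted p = 8.3e-06 and 1.6e-05).

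Klf4 probe set 1417394_AT was at 9.26, 9.85, 9.42 and 9.78 in nontransgenic lungs, at 10.13, 9.90, 5.51 and 9.46 in adjacent normal lungs, and at 7.07, 8.78, 6.19 and 5.40 in tumors, each in the order 1 to 4. Adjacent normal lung 3 lay within the range of the tumors, while the other 7 normal lungs lay above all tumors. The difference between the 2 Klf4 probe sets, 1417394_AT minus 1417395_AT, was 0.72 to 1.11 on 11 arrays and -2.93 on adjacent normal lung 3. The same difference for Jun, 1417409_AT minus 1448694_AT, was 0.77 on that lung and 0.73 to 1.18 on the other 11 arrays. By 1417394_AT the log2 fold change between tumor and adjacent normal lung was -1.89 (SE 0.93, 95% interval -3.93 to 0.15) and did not pass (limma adjusted p = 0.15). It was -2.97 without adjacent normal lung 3 (limma adjusted p = 0.0063) and -2.53 without tumor 2 (limma adjusted p = 0.038). Against nontransgenic lung this probe set was 6.58-fold lower in tumor (log2 fold change -2.72, limma adjusted p = 0.043), and leaving out any 1 of the 4 nontransgenic lungs, adjacent normal lung 4 or tumor 1, 3 or 4 ended the call, with log2 fold changes of -2.82 to -2.23 and limma adjusted p of 0.054 to 0.12.

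**Figure D2:**
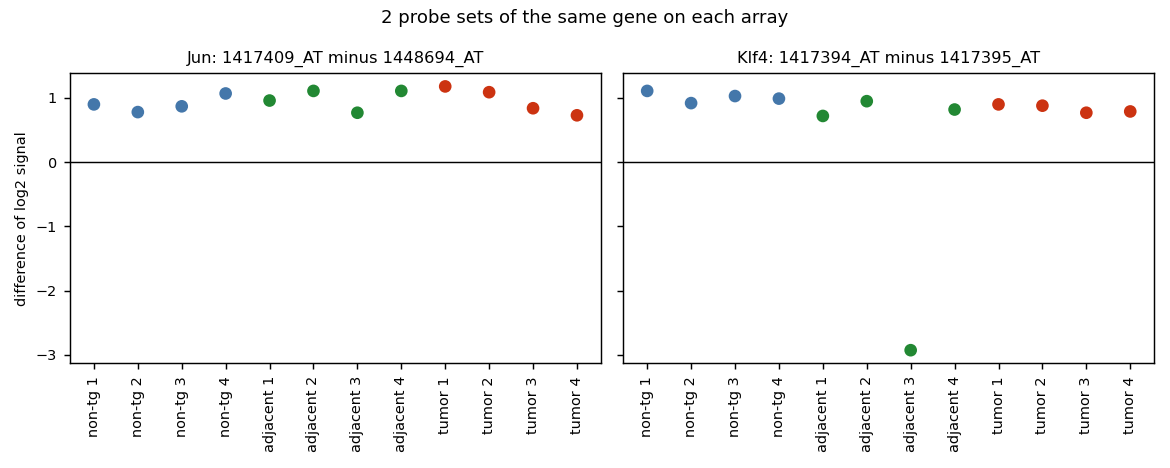
Difference of log2 signal (vertical axes) between the 2 probe sets of Jun (left) and of Klf4 (right) on each of the 12 arrays (horizontal axes; non-tg, nontransgenic). The Klf4 points lie at 0.72 to 1.11 except on adjacent normal lung 3, at -2.93, while all Jun points lie at 0.73 to 1.18.

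Jun, the AP-1 subunit that can bind DNA as a homodimer or with FOS proteins, was lower in tumors by a smaller and more even amount. Probe set 1448694_AT was at 8.41, 8.98, 8.92 and 8.80 in nontransgenic lungs 1 to 4, at 8.90, 8.67, 8.64 and 8.78 in adjacent normal lungs, and at 7.91, 7.94, 7.78 and 7.86 in tumors. The tumors, tumor 2 among them, spanned less than either kind of normal lung and lay below all of these. The SD of 0.07 among tumors stood at percentile 2.5 of the SD among all probe sets tested. Jun was 1.84-fold lower in tumor than in adjacent normal lung by this probe set (log2 fold change -0.88, SE 0.14, 95% interval -1.18 to -0.58, limma adjusted p = 0.0010) and 1.87-fold lower than in nontransgenic lung (-0.91, limma adjusted p = 7e-04). Probe set 1417409_AT was at 9.32, 9.76, 9.79 and 9.86 in nontransgenic lungs, 9.86, 9.78, 9.41 and 9.88 in adjacent normal lungs, and 9.09, 9.03, 8.62 and 8.59 in tumors. The narrow spread among tumors was not seen with this probe set. Its SD was 0.26 in tumors, at percentile 41.2, beside 0.25 in nontransgenic and 0.22 in adjacent normal lung. Here too the tumors lay below all normal lungs, by 1.86-fold against adjacent normal lung (log2 fold change -0.90, SE 0.18, limma adjusted p = 0.0035) and 1.80-fold against nontransgenic lung (-0.85, limma adjusted p = 0.0041). Jun was lower in tumor than in the adjacent lung of the same number in 4 of 4 pairs by both probe sets, by -0.99 to -0.73 with 1448694_AT and by -1.29 to -0.74 with 1417409_AT.

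Dusp1, the nuclear phosphatase that inactivates p38, JNK and ERK, was at 9.64, 9.97, 10.19 and 10.81 in nontransgenic lungs 1 to 4, at 10.98, 11.06, 9.98 and 9.55 in adjacent normal lungs, and at 8.90, 9.91, 8.0 and 8.23 in tumors. Tumors 1, 3 and 4 lay below every normal lung, and tumor 2 lay within the range of both kinds of normal lung. Dusp1 was 3.10-fold lower in tumor than in adjacent normal lung (log2 fold change -1.63, SE 0.45, 95% interval -2.61 to -0.65, limma adjusted p = 0.019) and 2.62-fold lower than in nontransgenic lung (-1.39, SE 0.45, 95% interval -2.37 to -0.41, limma adjusted p = 0.033). Without tumor 2 the log2 fold changes were -2.01 and -1.78 (limma adjusted p = 0.0014 and 0.0029). The call against adjacent normal lung was lost when adjacent normal lung 1 or 2 or tumor 3 or 4 was left out (log2 fold change -1.45 to -1.38, limma adjusted p = 0.056 to 0.061), and that against nontransgenic lung when nontransgenic lung 2, 3 or 4 or tumor 1, 3 or 4 was left out (-1.45 to -1.14, limma adjusted p = 0.057 to 0.099). Dusp1 was lower in the tumor in 4 of 4 pairs of the same number, by -2.08 to -1.15.

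The sequences before the transcription start of the 4 genes that were lower in tumors, and of Fos, which was not, are shown so that the elements of rapid induction can be read beside the values. They are RefSeq windows of GRCm38.p6, each 250 bases long and ending at the base before the start, printed 5′ to 3′ on the strand of the gene. Klf2 lies at chr8:72318812-72319061 on the plus strand, Klf4 at chr4:55532476-55532725 on the minus strand, Jun at chr4:95052223-95052472 on the minus strand, Dusp1 at chr17:26508473-26508722 on the minus strand and Fos at chr12:85473640-85473889 on the plus strand. Capitals mark exact matches, on either strand, to the KLF motif CACCC, the EGR motif GCGNGGGCG, the cyclic AMP response element TGACGTCA, the TATA box TATAAA or the MEF2 site.
Klf2: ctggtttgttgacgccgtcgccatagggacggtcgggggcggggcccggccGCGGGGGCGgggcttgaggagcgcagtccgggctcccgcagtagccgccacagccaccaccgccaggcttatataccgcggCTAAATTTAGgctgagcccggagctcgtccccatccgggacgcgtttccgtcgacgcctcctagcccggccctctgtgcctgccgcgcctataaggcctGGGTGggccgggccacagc
Klf4: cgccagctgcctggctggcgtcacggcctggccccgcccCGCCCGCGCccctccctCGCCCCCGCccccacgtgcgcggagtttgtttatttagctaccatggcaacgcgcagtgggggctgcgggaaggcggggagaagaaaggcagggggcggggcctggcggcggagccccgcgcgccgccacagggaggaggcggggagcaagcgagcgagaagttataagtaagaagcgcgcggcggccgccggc
Jun: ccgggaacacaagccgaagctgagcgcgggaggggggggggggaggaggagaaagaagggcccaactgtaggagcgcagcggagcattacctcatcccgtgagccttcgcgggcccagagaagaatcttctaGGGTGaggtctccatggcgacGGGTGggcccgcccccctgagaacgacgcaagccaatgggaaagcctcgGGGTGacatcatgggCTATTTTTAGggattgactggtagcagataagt
Dusp1: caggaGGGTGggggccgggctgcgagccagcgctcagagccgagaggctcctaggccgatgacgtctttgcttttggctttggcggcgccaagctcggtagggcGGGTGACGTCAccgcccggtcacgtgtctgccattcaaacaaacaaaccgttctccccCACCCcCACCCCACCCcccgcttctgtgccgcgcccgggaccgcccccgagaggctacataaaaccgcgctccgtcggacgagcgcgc
Fos: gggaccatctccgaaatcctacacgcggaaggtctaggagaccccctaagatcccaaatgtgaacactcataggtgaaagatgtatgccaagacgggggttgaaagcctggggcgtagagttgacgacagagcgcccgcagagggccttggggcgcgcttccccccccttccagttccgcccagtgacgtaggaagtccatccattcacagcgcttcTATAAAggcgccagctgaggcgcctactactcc

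The windows differed in the elements they held. That of Klf2 had a MEF2 site at -118 to -109, the element that the ERK5 pathway is known to use in this gene, with an EGR motif at -199 to -191 and a KLF motif at -19 to -15. Klf4 had 2 EGR motifs on the opposite strand, at -211 to -203 and -194 to -186. Jun had a MEF2 site at -33 to -24 and 3 KLF motifs, and Dusp1 had 5 KLF motifs and the cyclic AMP response element at -143 to -136, which overlaps a KLF motif at -146 to -142. In Fos the TATA box at -33 to -28 was the single match. Atf3 and Junb, not called lower, and Fosb, not tested, also held KLF motifs before the start. Fosb held an EGR motif too, at -50 to -42, so KLF and EGR motifs were not confined to the genes lower in tumors. Windows of 8 of the 10 genes were searched, without Egr1 and Ier2, and a MEF2 site, searched by name, was in 3 of these 8, Klf2, Jun and Atf3. Of all 32851 RefSeq promoter windows, which also take in 50 bases after the start, 3.19% held a MEF2 site, 5.55% an EGR motif, 57.5% a KLF motif, 1.79% the cyclic AMP response element and 13.6% a TATA box. None of the 8 windows searched held the AP-1 site TGANTCA, found in 7.81% of all windows, or a CArG box, the serum response element core searched by name, found in 1.63%. These are exact matches of letters in short windows and say nothing of binding. Elements farther upstream, or differing from the motif in a letter, would be missed.

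Junb, an AP-1 subunit that can oppose JUN in the control of proliferation, moved the other way. It was at 6.33, 6.18, 7.09 and 6.66 in nontransgenic lungs 1 to 4, at 6.84, 7.22, 7.15 and 7.06 in adjacent normal lungs, and at 7.68, 7.21, 8.82 and 7.48 in tumors. All tumors lay above all nontransgenic lungs, while tumor 2 lay just below the highest adjacent normal lung. Junb was 2.35-fold higher in tumor than in nontransgenic lung (log2 fold change 1.23, SE 0.31, 95% interval 0.56 to 1.90, limma adjusted p = 0.011). Against adjacent normal lung the log2 fold change was 0.73 (SE 0.31, 95% interval 0.06 to 1.40) and did not pass (limma adjusted p = 0.095), but without tumor 2 it was 0.93 and passed (limma adjusted p = 0.026), while without tumor 3, the highest, it was 0.39 (limma adjusted p = 0.23). By number, the tumor minus adjacent lung difference was 0.84, -0.01, 1.68 and 0.41.

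Fos, the partner of JUN in AP-1 and the best known immediate early gene, varied from lung to lung rather than with the group. It was at 7.47, 7.24, 8.15 and 8.34 in nontransgenic lungs 1 to 4, at 7.59, 8.59, 8.05 and 7.35 in adjacent normal lungs, and at 7.70, 8.12, 7.30 and 8.03 in tumors. The 3 ranges overlapped almost fully. Its log2 fold change was -0.11 between tumor and adjacent normal lung (95% interval -0.79 to 0.57, limma adjusted p = 0.82) and -0.01 between tumor and nontransgenic lung (95% interval -0.70 to 0.67, limma adjusted p = 0.98). Fosb, a close relative of Fos, was at 2.55 to 2.94 on the 12 arrays, below the level for testing in every group.

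Egr1, a zinc finger factor induced with Fos, was at 7.34, 7.45, 8.05 and 7.71 in nontransgenic lungs 1 to 4, at 7.29, 8.19, 7.53 and 7.14 in adjacent normal lungs, and at 7.61, 7.21, 7.04 and 8.28 in tumors. Its groups overlapped as well, and the 95% intervals of the log2 fold change were -0.64 to 0.64 against adjacent normal lung (limma adjusted p = 0.99) and -0.74 to 0.54 against nontransgenic lung (limma adjusted p = 0.82). Ier2, a small nuclear protein of the early response, was at 7.57, 7.59, 8.29 and 8.22 in nontransgenic lungs, 8.60, 8.21, 7.68 and 8.25 in adjacent normal lungs, and 9.21, 8.05, 8.21 and 8.28 in tumors. Tumor 1 was its highest array, but the other tumors lay among the normal lungs, and the log2 fold changes were 0.25 against adjacent normal lung (95% interval -0.37 to 0.87, limma adjusted p = 0.53) and 0.52 against nontransgenic lung (95% interval -0.10 to 1.13, limma adjusted p = 0.18), or 0.26 without tumor 1 (limma adjusted p = 0.47).

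Atf3, a stress-induced factor that pairs with JUN proteins, was at 6.15, 4.96, 5.29 and 5.83 in nontransgenic lungs 1 to 4, at 5.28, 5.89, 6.03 and 5.67 in adjacent normal lungs, and at 5.93, 7.66, 5.81 and 5.70 in tumors. Tumor 2 alone was above all other arrays, and the other 3 tumors lay within the normal range. The log2 fold change between tumor and adjacent normal lung was 0.56 (95% interval -0.33 to 1.44, limma adjusted p = 0.32), and 0.09 without tumor 2 (limma adjusted p = 0.80). Against nontransgenic lung it was 0.71 (limma adjusted p = 0.20), and 0.25 without tumor 2 (limma adjusted p = 0.46). For the 4 genes Fos, Egr1, Ier2 and Atf3 the intervals against adjacent normal lung leave room for changes in both directions. Their upper ends were 0.57 to 1.44 and their lower ends -0.79 to -0.33, and the tests do not show equal levels.

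**Figure D3:**
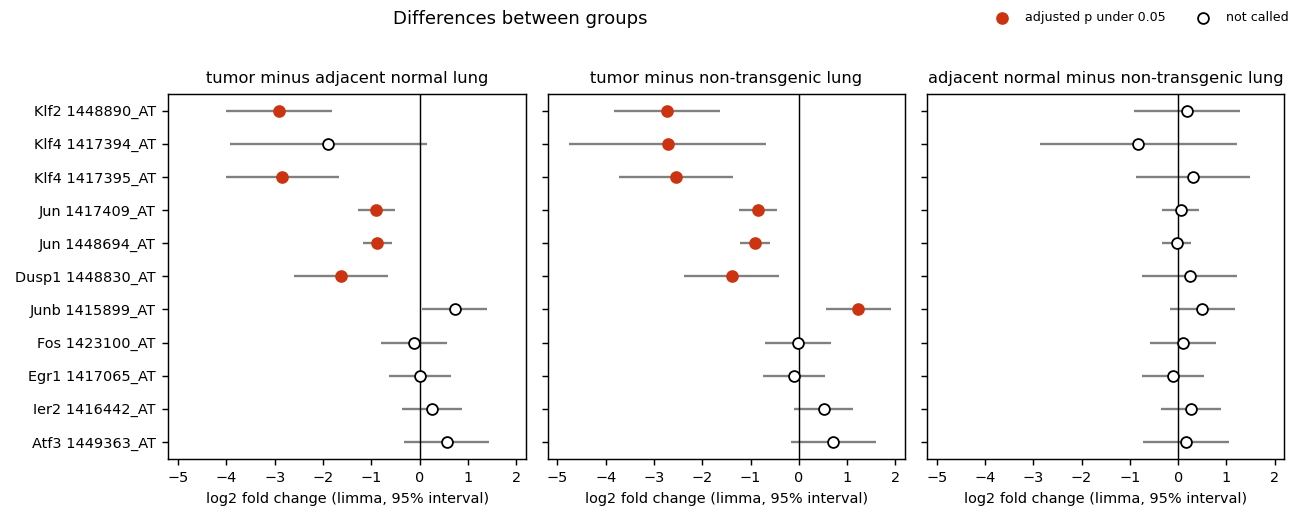
Log2 fold change (horizontal axes) with its 95% interval from limma for the 11 member probe sets tested, in tumor against adjacent normal lung (left), tumor against nontransgenic lung (middle) and adjacent normal against nontransgenic lung (right). Filled points passed the adjusted threshold of 0.05; they lie left of 0 for 5 probe sets in the left panel and for 6 in the middle panel, where Junb lies right of 0, and the right panel has none.

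Adjacent normal and nontransgenic lung did not differ in any member by the test. These groups differ both by the transgene and by the tumor beside the adjacent lung, which cannot be told apart. In limma 0% of all probe sets passed in this comparison, in either direction. At an unadjusted p under 0.05 there were 835 of all probe sets and 0 of the 11 members. The log2 fold change was 0.18 for Klf2 (95% interval -0.91 to 1.28), 0.30 for Klf4 1417395_AT (-0.88 to 1.48), 0.24 for Dusp1 (-0.74 to 1.22), 0.05 for Jun 1417409_AT (-0.33 to 0.43), -0.03 for Jun 1448694_AT (-0.33 to 0.27) and 0.50 for Junb (-0.17 to 1.17). Klf4 1417394_AT was at -0.83 (-2.86 to 1.21), and at 0.25 without adjacent normal lung 3. The median of the 11 members was 0.16, beside 0.01 over all probe sets tested. Changes of the size seen for Jun in tumors lie outside its 2 intervals, while those of Klf2 and Klf4 1417395_AT lie far outside theirs and smaller changes of these genes do not. For Klf4 1417394_AT the changes seen in tumors, -1.89 and -2.72, lie inside its interval.

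Counted without a test, the arrays of tumor and adjacent normal lung did not overlap in 4 member probe sets, with tumors below in all of them. Over all probe sets, 13.0% had tumors below and 10.4% had tumors above. The 4 were both Jun probe sets, Klf2 and Klf4 1417395_AT. Without tumor 2, limma called 6 members lower in tumor than in adjacent normal lung, where 22.1% of all probe sets were called lower, and 1 higher, Junb, where 23.0% were called higher.

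The spread among nontransgenic lungs was wide for most of the early genes, but not for Jun, and in the other groups it was less so for some. In nontransgenic lung the SD was 0.53 for Fos and 0.53 for Atf3, 0.50 for Dusp1, 0.40 for Junb, 0.39 for Ier2 and 0.31 for Egr1, which are the percentiles 96.5, 96.6, 95.6, 91.4, 90.4 and 81.3 of the SD among all probe sets tested, whose median SD was 0.19. Jun had an SD of 0.25 by both probe sets, at percentiles 67 and 69, and Klf2, at 0.28, lay at percentile 75.4. Klf4 1417394_AT and 1417395_AT lay at percentiles 75.3 and 87.2. In adjacent normal lung Klf4 1417394_AT was the widest, with an SD of 2.18 at percentile 99.9 that rests on lung 3. Dusp1, Klf2 and Fos followed with SDs of 0.75, 0.63 and 0.55 at percentiles 95.3, 93.2 and 91.1, while Junb, at 0.16, lay at percentile 32.0 and the Jun probe sets, at 0.22 and 0.12, at 50.5 and 16.7. Egr1, Ier2 and Atf3 lay at percentiles 87.4, 81.1 and 74.4. In tumors the widest members were the 2 Klf4 probe sets, with SDs of 1.45 and 1.40 at percentiles 97.6 and 97.3, and Klf2, with 1.22 at percentile 95.6. Fos, Ier2 and Egr1 lay at percentiles 60.4, 76 and 78.1 among tumors. Without tumor 2 the SD among tumors was 0.12 for Klf2, but still 0.83 for Klf4 1417394_AT and 0.78 for Klf4 1417395_AT.

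Among the 8 normal lungs, Fos and Egr1 were high and low in the same lungs. With each value taken from the mean of its group, Pearson's r between Fos and Egr1 was 0.89 (two-sided exact permutation test, p = 0.0029, adjusted p = 0.031 over the 11 relations of Fos) and Spearman's rho was 0.83 (exact permutation p = 0.015, adjusted p = 0.085). Exact here means that all orders of the lungs were run. After centring, the orders crossed both groups, so p from centred values is approximate and can be too small. Without the 2 lungs farthest from the median of Fos, adjacent normal lung 2 and nontransgenic lung 2, r was 0.82 (exact permutation p = 0.049, adjusted p = 0.53). Without adjacent normal lung 3 it was 0.90 (exact permutation test, adjusted p = 0.12), and without centring on the group mean 0.86 (exact permutation test, adjusted p = 0.065), so the adjusted call did not hold under these settings. For Junb r was 0.72 (exact permutation p = 0.042, adjusted p = 0.23) and rho 0.86 (adjusted exact p = 0.085), and for Dusp1 r was 0.65 (exact permutation p = 0.087, adjusted p = 0.32) and rho 0.76 (adjusted exact p = 0.13). Without the 2 farthest lungs these were 0.60 and 0.53 (exact permutation p = 0.22 and 0.28). The remaining 8 probe sets had an r of -0.10 to 0.36 with Fos, with adjusted exact p of 0.85 to 0.92. Adjacent and nontransgenic lungs had 4 samples each, too few for a value within each group.

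**Figure D4:**
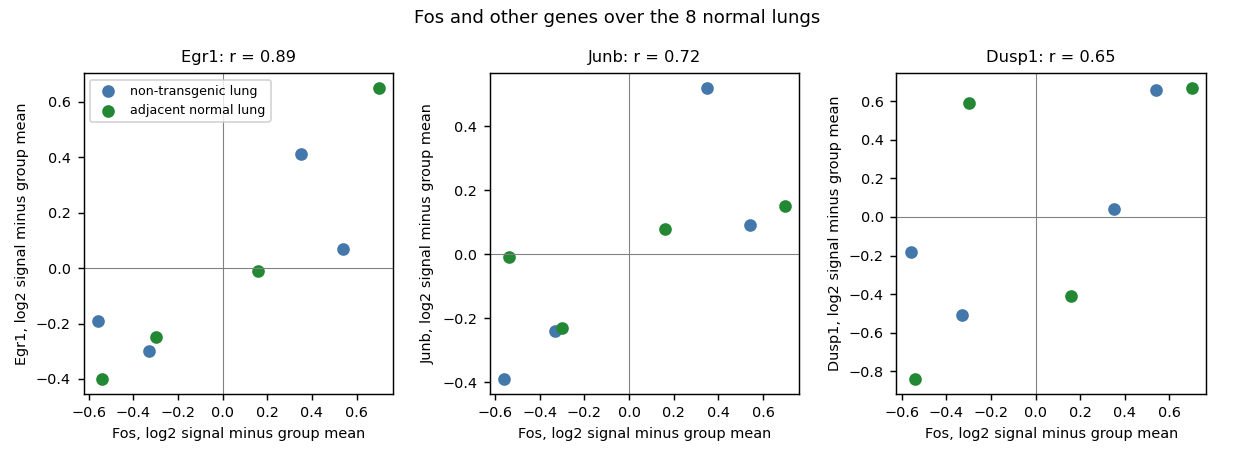
Log2 signal of Egr1 (left), Junb (middle) and Dusp1 (right) on the vertical axes against that of Fos on the horizontal axes, each as the difference from the mean of its group, in 4 nontransgenic lungs (blue) and 4 adjacent normal lungs (green). Pearson's r is 0.89, 0.72 and 0.65.

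Over all 12 arrays, where tumors and normal lungs set much of the likeness, the members most like Klf2 were Klf4 1417395_AT (Pearson's r = 0.974, rank 192 of all probe sets tested) and Dusp1 (0.935, rank 1016). The Jun probe sets 1448694_AT (0.891, rank 1862) and 1417409_AT (0.888, rank 1918) followed. The 5 probe sets most like Klf2, at r of 0.987 to 0.993, and the 5 most like Fos, at 0.785 to 0.810, are not named by the tables used here. Egr1 was the member most like Fos, with r of 0.708 and rank 17. These values are descriptions over the same 12 arrays, with no test.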

How the data were processed

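Gene expression was measured on 12 Affymetrix mouse genome arrays, 4 per group, from biotin-labelled cRNA of total RNA. The authors deposited background-corrected and normalized log2 values, 1 for each probe set on each array, with a range of 1.50 to 14.51. The method is Robust Multichip Average in the paper and GCRMA, with no version, in the submitters' processing notes. The table held 45101 rows, 64 of them controls, and no detection calls, and the number of arrays limits the precision. Groups and replicate numbers came from the labels, which give no scan date. The paper states independent biologic samples and the series gives 4 transgenic mice for 8 arrays, so p-values of the fit with no block take the arrays as independent.

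The members and lists were chosen with earlier results of these data known. Every member was to be named. The wider gene lists, the tissue markers and the other named genes were not analysed here, because the tables used pair no other probe set with a gene. A probe set was tested if above the table median (4.18) on at least 4 arrays, which kept 23538. limma 3.58.1 in R 4.3.3 was fitted (lmFit, eBayes) over 3 groups with no block, with Benjamini-Hochberg adjustment over all tested at 0.05. Correlations used exact permutations in Python 3.11.15 with scipy 1.17.1. The labels' tissue codes imply that a tumor and adjacent lung of the same number share a mouse. Their deviations from the group means correlated by -0.03, 0.10, 0.07 and 0.11 in pairs 1 to 4. The scripts were tested on simulated data. Alternatives were other filters, scalings, fits, blocks and each array left out.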

Additional observations from a re-analysis of the deposited data

Results flagged for a closer look

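Of the 36 sets of 4 arrays (12 probe sets in 3 groups), 3 had an end array whose gap to the next, as a share of the range, exceeded Dixon's 95% critical value, and chance flags about 1 in 20 sets. Klf2 was at 8.73 in tumor 2, with the other tumors at 6.21 to 6.45 (gap 0.907 of the range). Atf3 was at 7.66 in tumor 2, with the other tumors at 5.70 to 5.93 (0.884). Klf4 1417394_AT was at 5.51 in adjacent normal lung 3, with the other adjacent lungs at 9.46 to 10.13 (0.854).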

How the results depend on the processing

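Each log2 fold change was recomputed under other filters, quantile normalization, median centring, a floor, an intensity trend, the 8 arrays compared, blocks, the unequal-variance test of 2 groups, and without each array. The 12 called fold changes kept their direction in all 281 recomputations and lost the call in 30. Many of these altered only the filter, the spread estimate, the block, the test or an array outside the comparison. Such settings leave a fold change as it was, so its direction there was fixed in advance. The unequal-variance test after adjustment left 1 probe set, Jun 1448694_AT, lower in tumor than in adjacent normal lung. It left 0 lower and 0 higher than in nontransgenic lung. Without a filter Klf4 1417394_AT missed the call against nontransgenic lung (limma adjusted p = 0.062). With the replicate number as a block, 5 members were lower and 0 higher in tumor than in adjacent normal lung, with limma adjusted p = 0.028 and 0.021 for Jun, 0.015 for Dusp1, 0.019 for Klf2 and 0.022 for Klf4 1417395_AT, and no member's call changed, while the calls over all probe sets went from 3102 to 1007 higher and from 3663 to 2275 lower. The unequal-variance test called 140 higher and 451 lower there, and 486 higher and 1003 lower against nontransgenic lung, where limma called 3678 and 3974. The methods' analysis of variance passed for 6 of 12 members at its stated threshold, where 26.9% of all probe sets passed, and for 4 after adjustment, where 10.5% did. When each array was left out, 0 to 1 members were higher (6.95 to 23.0% of all probe sets) and 4 to 6 lower (12.1 to 22.1%) than in adjacent normal lung, 1 higher (9.31 to 24.3%) and 4 to 6 lower (13.5 to 22.5%) than in nontransgenic lung, and 4 to 7 passed the F-test (17.6 to 44.2%). Without tumor 2 and adjacent normal lung 3 together, 1 member was higher than in adjacent normal lung, where 24.7% of all probe sets were, and 6 were lower, where 22.9% were. The count of Fos relations past the threshold went from 1 to 0 without the 2 farthest lungs, without adjacent normal lung 3 and without centring.

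The log2 fold changes that turned sign were not called, with adjusted p of at least 0.62. In tumor against adjacent normal lung, median centring gave 0.01 for Fos and 0.11 for Egr1. In tumor against nontransgenic lung it gave 0.06 for Fos. Without tumor 2 and adjacent normal lung 3, Egr1 was at 0.10 and 0.01 in these comparisons, and adjacent normal minus nontransgenic lung was 0.01 for Jun 1448694_AT and 0.25 for Klf4 1417394_AT. Quantile normalization gave 0.04 for Jun 1448694_AT there. With each array left out, tumor minus adjacent normal lung ran from -0.29 to 0.12 for Fos, -0.25 to 0.21 for Egr1 and -0.01 to 0.39 for Ier2, and tumor minus nontransgenic lung from -0.20 to 0.17 for Fos and -0.35 to 0.06 for Egr1. Adjacent normal minus nontransgenic lung ran from -0.14 to 0.28 for Fos, -0.07 to 0.16 for Jun 1417409_AT, -0.15 to 0.04 for Jun 1448694_AT, -0.32 to 0.04 for Egr1, -0.04 to 0.36 for Atf3, -0.07 to 0.41 for Klf2 and -1.29 to 0.25 for Klf4 1417394_AT. Weak correlations with Fos also turned sign: without the 2 farthest lungs Jun 1448694_AT was at 0.46, Atf3 at -0.14 and Klf4 1417395_AT at 0.19, without adjacent normal lung 3 Klf4 1417394_AT was at 0.19 and 1417395_AT at 0.03, and without centring the latter was at 0.00. The cause was not tested. Median centring moved the median log2 fold change of all probe sets from 0.07 to 0.18 against adjacent normal lung. The alternatives for gene lists were not run.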
